A study of Mus musculus with 12 samples.

Results

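Genes for digestive enzymes and their cofactors, which the acinar cells of the pancreas make in large amounts, were followed here mouse by mouse in spleen RNA. The genes were Cela1, Cela2a, Ctrb1, Cpa1, Amy2a5, Clps, Pnliprp1, Pla2g1b, Reg1 and Pnlip. They were taken by symbol, with the probe of the highest mean over the 12 mice for each gene. Of these 10 genes 9 had a probe, out of 19057 genes with a probe of their own, and Pnlip had none in the annotation used, so its expression is not analysed here. The genes were chosen because their levels stood apart in some spleens of these data, so their levels and diet differences are given below as a description.

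The study asked how fish oil fatty acids in a high fat diet change gene expression in the spleen, using male C57BL/6J mice. Each of the 12 arrays held the RNA of a separate mouse, with 4 mice per diet, and the mice had been picked from larger groups by body weight and plasma lipids. The mice arrived at 6 weeks of age, were acclimatized for 3 weeks and were then fed for 8 weeks. The HFD-ED diet contained, per 100 g, 15 g fat, of which 10 g was coconut oil, 3.0 g corn oil and 2.0 g an oil rich in eicosapentaenoic acid (EPA) and docosahexaenoic acid (DHA), with 1.0 g cholesterol. The HFD-CO diet contained the same amounts of fat, coconut oil and cholesterol, with 5.0 g corn oil. Control mice ate 5.0 g fat in the same weight of diet, 2.5 g each from corn oil and coconut oil, and no added cholesterol. Mice are named below by diet and replicate number.

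An acinar cell packs its enzymes, many of them as inactive precursors, into zymogen granules and releases them into the ducts that lead to the gut. Proteases such as elastase, chymotrypsin and carboxypeptidase digest protein, amylase digests starch, and lipases with their cofactor colipase digest fat. The transcription factors Ptf1a and Rbpjl, as parts of a complex, and Nr5a2 and Bhlha15 are known to keep these genes active in acinar cells. The tail of the mouse pancreas lies close to the spleen.

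The starts of 3 of the genes are printed with the bases before them, from the reference genome and not from these spleens. Each window holds the 250 bases before the RefSeq start and 50 bases after it, on the coding strand, in GRCm38.p6. Capitals mark matches on either strand to 3 motifs. The E-box letters CACCTG are the kind of site bound by Ptf1a and its basic helix-loop-helix partner. The TC-box letters TTTCCC are the kind bound by the Rbpjl part of the complex. The TATA box was searched as TATAAA. No motifs overlapped in the windows shown.
Cela1, chr15:100687871-100688170, minus strand: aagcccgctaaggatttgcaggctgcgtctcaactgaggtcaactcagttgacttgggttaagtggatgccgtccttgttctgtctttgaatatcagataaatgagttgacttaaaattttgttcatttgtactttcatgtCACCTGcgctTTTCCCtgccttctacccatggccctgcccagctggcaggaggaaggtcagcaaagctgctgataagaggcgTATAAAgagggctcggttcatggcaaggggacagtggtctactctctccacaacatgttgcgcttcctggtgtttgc
Cela2a, chr4:141825956-141826255, minus strand: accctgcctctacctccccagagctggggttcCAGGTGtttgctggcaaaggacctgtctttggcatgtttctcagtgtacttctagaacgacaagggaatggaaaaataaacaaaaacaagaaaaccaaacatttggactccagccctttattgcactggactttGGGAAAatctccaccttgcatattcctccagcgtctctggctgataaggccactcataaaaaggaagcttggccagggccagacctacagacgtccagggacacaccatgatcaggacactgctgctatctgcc
Amy2a5, chr3:113258650-113258949, minus strand: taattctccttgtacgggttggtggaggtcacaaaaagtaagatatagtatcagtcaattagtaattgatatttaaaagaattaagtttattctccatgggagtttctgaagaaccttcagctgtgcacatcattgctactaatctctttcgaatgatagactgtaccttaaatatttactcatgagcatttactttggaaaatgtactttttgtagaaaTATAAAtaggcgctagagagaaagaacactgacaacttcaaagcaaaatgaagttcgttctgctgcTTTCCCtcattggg
Cela1 had its E-box at position -109, its TC-box at -99 and its TATA box at -27, counted from the start site to the first letter of the motif. In Cela2a both the E-box at -218 and the TC-box at -84 lay on the opposite strand, and the searched TATA letters were not in the window. Amy2a5 had its TATA box at -30 and a TC-box after the start, at 37. RefSeq windows were found for 9 of the 10 genes, Pnlip included and Clps not. The E-box letters were in 2 of these 9 windows, against 20.2% of 32851 windows of the same length, the TC-box letters in 6 of 9, against 25.2%, and the TATA letters in 4 of 9, against 13.6%. Both the E-box and the TC-box were in 2 of 9 windows, those of Cela1 and Cela2a, against 4.86% of all windows. The motif starts lay within 12 bases of each other in 1 of 9, that of Cela1, against 0.362%. A match of letters is a description of the window and does not show that a factor binds there.

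The deposited values are normalized levels on a scale close to log2. They covered 45281 probes, with a lower quartile of 7.08 and a median of 7.14, so that a level near 7.1 lies at the floor of the scale. A level above 7.5, under which 75.2% of all probes had their mean, is called clear of the floor here. Arrays of the same diet correlated at 0.971 to 0.995, and no arrays held identical values. Among genes of spleen cells, the B cell gene Cd79b lay at 12.3 to 12.99, while the probes of Cd8a and Cd5l lay near the floor in all 12 mice, at most at 7.14 and 7.10. A probe at the floor therefore does not show that a transcript is missing. The submitted extraction text mentions skeletal muscle, whereas titles and tissue label say spleen. Of 11 measured skeletal muscle genes 9 did not exceed 7.5 in any mouse, among them Acta1, Ckm and Myh4, at most at 7.26. The exceptions were Tnni2, at 7.72 to 8.21 over the mice, and Mylpf, at 7.29 to 7.68.

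Which spleens carried the acinar transcripts varied within each diet. A single spleen, HFD-CO replicate 4, carried all 9 measured genes at high levels, and HFD-CO replicate 1 carried 8 of them above 7.5, at lower levels. HFD-ED replicate 1 and control replicate 2 had smaller amounts, control replicate 3 less again, and the remaining 7 spleens were under 7.5 for every gene but Cela1 and Amy2a5. HFD-CO replicate 4 was the highest mouse and HFD-CO replicate 1 the second highest for 9 of 9 genes. In bulk tissue, fewer cells of a type and less RNA per cell cannot be told apart.

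**Figure D1:**
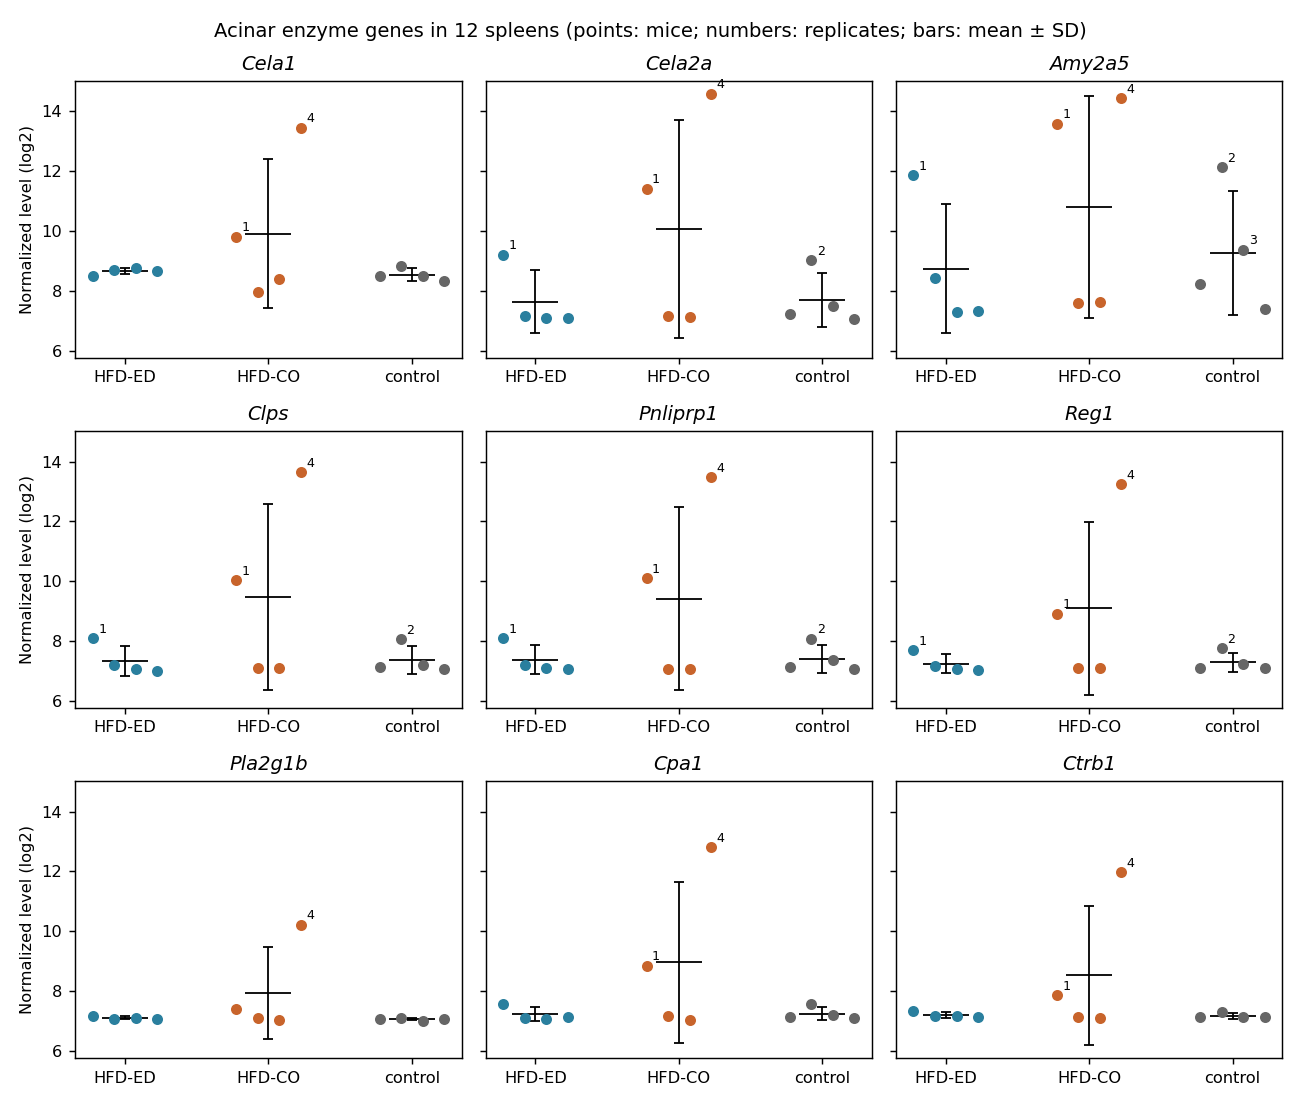
Normalized levels (log2 scale, y axis) of the 9 measured acinar enzyme genes in 4 HFD-ED, 4 HFD-CO and 4 control mice, with bars for the mean ± SD of each diet and numbers naming the replicates more than 0.5 above the 12-mouse median. HFD-CO replicates 4 and 1 are the highest 2 points in every panel, while the other HFD-CO points lie with the low mice of the other diets.

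Elastases and chymotrypsin are serine proteases that cut proteins inside the chain. Cela2a, an elastase, lay at 9.20, 7.15, 7.10 and 7.09 in the HFD-ED mice, at 11.42, 7.15, 7.11 and 14.59 in the HFD-CO mice and at 7.21, 9.03, 7.51 and 7.06 in the control mice (replicates 1 to 4 in order, here and below). The level of 14.59 was close to the top of the scale, and the diets overlapped, since each diet had at least 1 mouse within 0.1 of 7.1. Cela2a lies on chromosome 4 at 141814954 to 141826005. Ctrb1, chymotrypsinogen, lay at 7.34, 7.16, 7.17 and 7.15 in the HFD-ED mice, at 7.86, 7.14, 7.11 and 11.96 in the HFD-CO mice and at 7.12, 7.29, 7.13 and 7.12 in the control mice. No spleen other than HFD-CO replicates 1 and 4 was clear of the floor for Ctrb1, on chromosome 8 at 111686510 to 111691010.

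Cela1, the other elastase, differed from the rest in having a level clear of the floor in every mouse. It lay at 8.5, 8.69, 8.77 and 8.67 in the HFD-ED mice, at 9.81, 7.96, 8.39 and 13.46 in the HFD-CO mice and at 8.49, 8.83, 8.49 and 8.32 in the control mice. HFD-ED replicate 1, among the first 4 mice for most other genes, was below the 12-mouse median for Cela1, while control replicate 2 followed HFD-CO replicates 4 and 1. The gene lies on chromosome 15 at 100674422 to 100687920. Its second probe stayed at 7.05 to 7.15 in all 12 mice and did not register the 2 high spleens.

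Cpa1, carboxypeptidase A, which removes amino acids from the end of a chain, lay at 7.57, 7.11, 7.07 and 7.13 in the HFD-ED mice, at 8.84, 7.16, 7.04 and 12.82 in the HFD-CO mice and at 7.13, 7.56, 7.19 and 7.08 in the control mice. The order of its first 4 mice was HFD-CO replicate 4, HFD-CO replicate 1, HFD-ED replicate 1 and control replicate 2, and the last 2 of these differed by 0.01. It lies on chromosome 6 at 30639218 to 30645361, the chromosome that also holds Reg1.

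Amy2a5, a pancreatic amylase, stood out in the widest set of mice by its brightest probe only. By its brightest probe it lay at 11.87, 8.43, 7.30 and 7.33 in the HFD-ED mice, at 13.58, 7.58, 7.63 and 14.44 in the HFD-CO mice and at 8.22, 12.14, 9.37 and 7.38 in the control mice. With this probe it was more than 0.5 above its 12-mouse median in 5 mice, against 1 to 4 mice for the other genes. The gene, on chromosome 3 at 113249178 to 113258699, has close copies beside it that the probes may not tell apart. Its other probes lay lower and separated the mice differently. One was at 13.18 in HFD-CO replicate 4, 9.38 in HFD-CO replicate 1, 8.17 in HFD-ED replicate 1 and 8.11 in control replicate 2, and the other at 11.89, 7.79, 7.44 and 7.36 in the same mice. All 3 probes thus put the 4 mice in the order HFD-CO replicate 4, HFD-CO replicate 1 and then the other two, whose order turned for the brightest probe.

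Of the genes for fat digestion, Clps encodes colipase, which holds pancreatic lipase at the fat droplet. It lay at 8.09, 7.18, 7.05 and 7.0 in the HFD-ED mice, at 10.03, 7.10, 7.09 and 13.64 in the HFD-CO mice and at 7.12, 8.05, 7.21 and 7.07 in the control mice. Pnliprp1, a relative of pancreatic lipase, lay at 8.09, 7.19, 7.11 and 7.07 in the HFD-ED mice, at 10.10, 7.05, 7.05 and 13.47 in the HFD-CO mice and at 7.13, 8.08, 7.35 and 7.06 in the control mice. Both genes were clear of the floor in the same 4 mice, 1 on HFD-ED, 2 on HFD-CO and 1 on the control diet. Clps lies on chromosome 17 at 28558210 to 28560766, and Pnliprp1 on chromosome 19 at 58728887 to 58744169, the chromosome that also holds the unmeasured lipase gene Pnlip.

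Pla2g1b, the pancreatic phospholipase A2, stood least above its own median in HFD-CO replicate 4, by 3.14. It lay at 7.17, 7.08, 7.10 and 7.06 in the HFD-ED mice, at 7.40, 7.11, 7.02 and 10.22 in the HFD-CO mice and at 7.06, 7.09, 7.01 and 7.06 in the control mice. Only HFD-CO replicate 4 was clear of the floor for this gene, on chromosome 5 at 115466142 to 115474722. Reg1, a secreted lectin-like protein of acinar cells rather than an enzyme, lay at 7.69, 7.18 and 7.06 in HFD-ED replicates 1 to 3 and at 7.01 in replicate 4. It lay at 8.91, 7.10, 7.09 and 13.25 in the HFD-CO mice and at 7.10, 7.75, 7.21 and 7.09 in the control mice. The gene lies on chromosome 6 at 78425983 to 78428668, and its first 4 mice were those of Clps and Pnliprp1.

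To set the mice side by side, the level of each gene above its own 12-mouse median was averaged over the 9 genes. The mean was 0.96, 0.03, -0.13 and -0.16 in the HFD-ED mice, 2.34, -0.18, -0.15 and 5.66 in the HFD-CO mice and -0.04, 0.99, 0.17 and -0.19 in the control mice. By diet it was 0.17 ± 0.53 for HFD-ED, 1.92 ± 2.76 for HFD-CO and 0.23 ± 0.52 for control (SD, n = 4 each). Of the 9 genes, 7, 2, 1 and 1 were above 7.5 in the HFD-ED mice, 8, 2, 2 and 9 in the HFD-CO mice and 2, 7, 3 and 1 in the control mice. HFD-ED replicate 1 and control replicate 2 held ranks 3 and 4 for 7 of 9 genes. HFD-ED replicate 1 differed from control replicate 2 by between -0.33 (Cela1) and 0.18 (Cela2a), with 0.01 for both Cpa1 and Pnliprp1, and neither mouse was above 7.5 for Pla2g1b and Ctrb1.

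**Figure D2:**
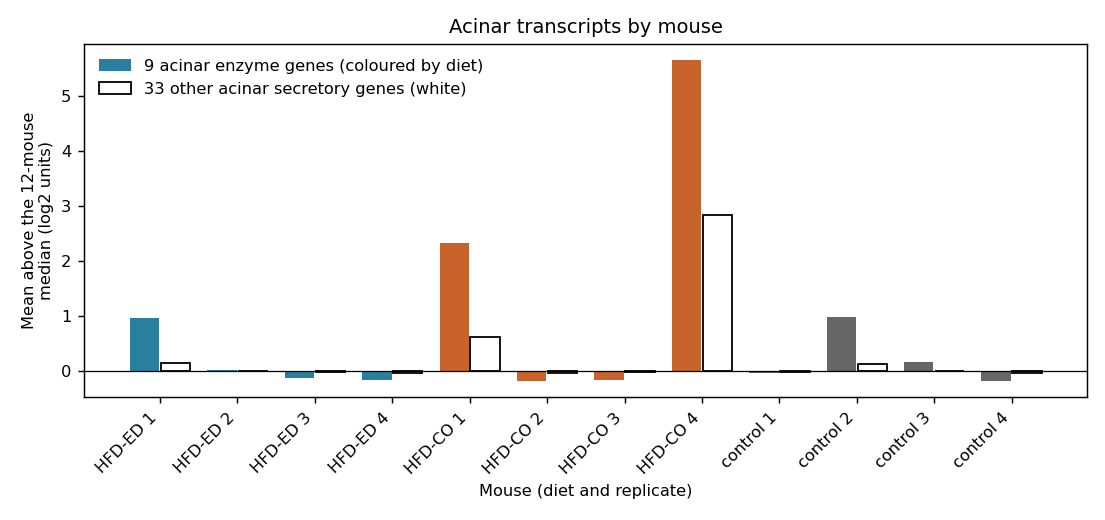
Mean level above the 12-mouse median (log2 units, y axis) in each mouse (x axis), for the 9 acinar enzyme genes (filled bars, coloured by diet) and for 33 other acinar secretory genes (white bars). HFD-CO replicate 4 stands at 5.66 and HFD-CO replicate 1 at 2.34 for the enzyme genes, HFD-ED replicate 1 at 0.96 and control replicate 2 at 0.99, and both sets of bars give the same 4 mice.

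The proportions between mice were taken for each probe against itself. Folds are antilogs of the difference of levels, and the excess of a mouse is the antilog of its level minus the antilog of the 12-mouse median. They are approximate, since the transformation compresses low values and since Cela2a (14.59) and the brightest Amy2a5 probe (14.44) lay close to the highest value of any probe, 14.793, in HFD-CO replicate 4. HFD-CO replicate 4 exceeded HFD-CO replicate 1 by 7.06-fold for Pla2g1b, which was not above 7.5 in HFD-CO replicate 1, and by 9.04-fold for Cela2a, 10.3-fold for Pnliprp1, 12.2-fold for Clps, 12.5-fold for Cela1, 15.7-fold for Cpa1, 17.2-fold for Ctrb1 and 20.2-fold for Reg1, while the ratio for the brightest Amy2a5 probe was 1.82. The other Amy2a5 probes gave 13.9-fold and 17.2-fold, so the low ratio was seen with 1 of the 3 probes. The excess in HFD-CO replicate 1 was a median of 4.74% of that in HFD-CO replicate 4 over the 9 genes, from 2.33% for Ctrb1 to 54.4% for Amy2a5. Without Amy2a5 the highest share was 10.5%, for Cela2a.

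In HFD-ED replicate 1 the excess was a median of 0.759% of that in HFD-CO replicate 4, and in control replicate 2 it was 0.782%. The median in HFD-ED replicate 1 was the share of Pla2g1b, which lay at 7.17 there and was not above 7.5. Shares that rest on levels near the floor are imprecise. The brightest Amy2a5 probe again gave the highest shares, 15.6% in HFD-ED replicate 1 and 19.0% in control replicate 2. Its other probes gave 1.63% and 1.04% in HFD-ED replicate 1 and 1.5% and 0.77% in control replicate 2. Among the other 8 genes the share reached at most 1.81% in HFD-ED replicate 1 and 1.53% in control replicate 2, both for Cela2a. The share in HFD-ED replicate 1 was below 0 for Cela1, at -0.20%.

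**Figure D3:**
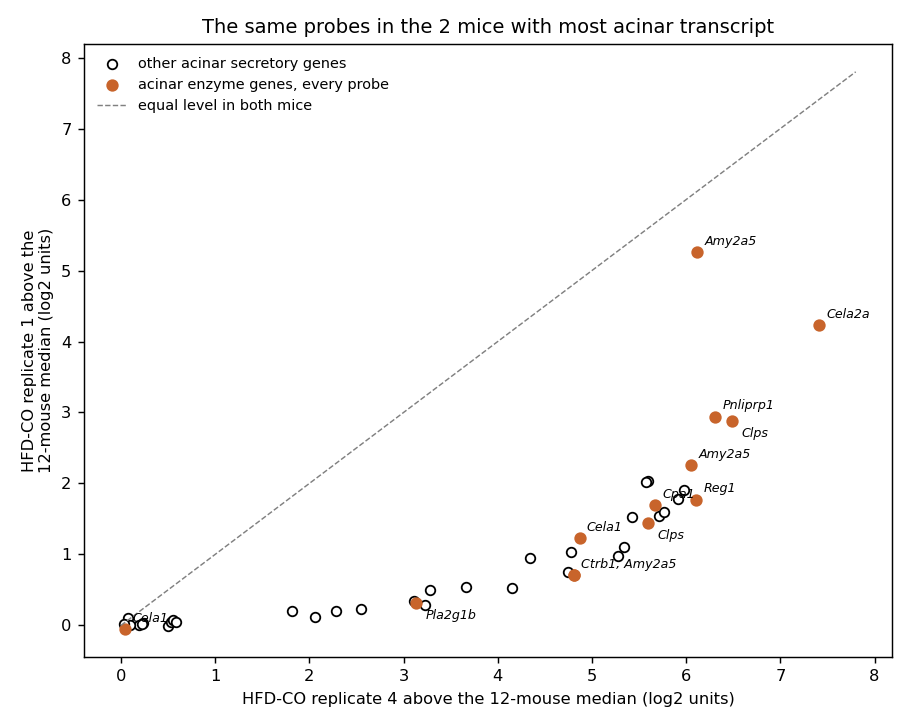
Level above the 12-mouse median (log2 units) in HFD-CO replicate 1 (y axis) against HFD-CO replicate 4 (x axis), for every probe of the acinar enzyme genes (filled) and for 33 other acinar secretory genes (open), with a dashed line where both mice would be equal. Nearly all points follow 1 bent path below the line, and the brightest Amy2a5 probe, at 5.26 against 6.12, lies above that path.

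The same mice led for acinar genes outside the list. Of 44 other acinar secretory genes 33 were measured, and HFD-CO replicate 4 was the highest mouse for 30 of them. The exceptions were Gnmt, Amy1 and 1810009J06Rik. They are among 8 of the 33 genes that did not exceed 7.5 in any mouse, and for the other 5 of these, such as Ctrc at 7.37, the order of the mice rests on values at the floor. In HFD-CO replicate 4 21 of the 33 lay more than 1 above their median, and in HFD-CO replicate 1 it was 9. The largest were Try10, at 13.07 in HFD-CO replicate 4 and 9.0 in HFD-CO replicate 1, Rnase1 at 13.03 and 8.89, Cpb1 at 12.89 and 8.73, Try4 at 12.83 and 8.66, Ctrl at 13.07 and 9.50 and Zg16 at 12.87 and 9.32. They encode trypsinogens (Try10, Try4), pancreatic ribonuclease, carboxypeptidase B, a chymotrypsin-like protease and a zymogen granule protein. The trypsinogen genes are near-identical copies and their values may be shared. Over these 21 genes, which were picked by their level in HFD-CO replicate 4 and so describe that mouse, the excess in HFD-CO replicate 1 was a median of 3.84% of that in HFD-CO replicate 4, from 2.56% to 6.56%. In HFD-ED replicate 1 it was 0.510% and in control replicate 2 0.534%, again as medians. Of the 33 genes, 6 were above 7.5 in HFD-ED replicate 1 and 5 in control replicate 2. Most shares in these mice thus rest on levels near the floor and are imprecise.

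The genes whose levels over the 12 mice were most like the mean of the 9 were Ctrl (Pearson r = 0.993), Try10 (0.988), Rnase1 (0.986), Zg16 (0.984), Try4 (0.982), Cpb1 (0.981), Try5 (0.981), Gm5409 (0.973), Prss2 (0.969) and Spink1 (0.967). These values describe 12 mice of which HFD-CO replicate 4 sets most of the range. Without that mouse r of the 10 genes ran between 0.925 (Zg16) and 0.978 (Ctrl), and HFD-CO replicate 1 then set much of the range. Spearman's rho over the 12 mice ran between 0.664 (Prss2) and 0.923 (Try4).

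All 45281 probes were also searched for levels that stood apart in 1 mouse, which finds the acinar genes again since they were chosen for standing apart. In HFD-CO replicate 4, 45 probes of 37 genes lay more than 1 above every other mouse, and 33 of the 45 belonged to the 9 genes or to the list of other acinar secretory genes. HFD-CO replicate 1 was second for 43 of the 45. The further named genes were Gm5409, annotated as a pseudogene with the synonym Try10l, its neighbour Gm10334 on chromosome 6, the kallikreins Klk1b5, Klk1b26 and Klk1b27, Tff2 and Nupr1, and 5 probes had no gene symbol. HFD-ED replicate 3 had 26 such probes, none of them of those acinar genes, and each of the other 10 mice had 0 to 4.

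Across diets, the limma fit called 0 of the 9 genes at an adjusted p of 0.05 in HFD-ED against control, where 0% of the 45281 probes were called. It called 0 of 9 in HFD-CO against control, where 0% of all probes were called, and 0 of 9 in HFD-ED against HFD-CO, where 0.00221% were called. At an unadjusted p of 0.05 it also gave 0 of 9 in each comparison, while 4620, 2072 and 4211 of all probes passed. At the adjusted p, the 21 other settings called none of the genes tested either, which were 8 with dim probes left out and 9 otherwise. At the unadjusted p, the fits without HFD-CO replicate 2 and without HFD-CO replicate 3 gave more. Each had 4 of 9 in HFD-CO against control and 5 of 9 in HFD-ED against HFD-CO. Of all probes, 1730 and 3266 passed in these comparisons without HFD-CO replicate 2, and 2337 and 4546 without HFD-CO replicate 3. Leaving out a low HFD-CO mouse gives HFD-CO replicates 1 and 4 more weight, so these counts are a description. Without HFD-CO replicates 1 and 4 it was 1 of 9 in each of these comparisons, with 2111 and 2733 of all probes. The HFD-ED and HFD-CO comparisons with control share the control mice, and both comparisons with HFD-CO share the HFD-CO mice.

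In HFD-CO against control the differences of the 9 genes ran between 0.89 (Pla2g1b, SE 0.57) and 2.37 (Cela2a, SE 1.45), 9 of 9 positive with a median of 1.72, and all had an adjusted p of 0.99996 (limma, Benjamini-Hochberg). In HFD-ED against HFD-CO they ran between -2.43 (Cela2a, SE 1.45, adjusted p = 0.656) and -0.84 (Pla2g1b, SE 0.57, adjusted p = 0.711), 9 of 9 negative with a median of -1.85. In HFD-ED against control 3 were positive and 6 negative, between -0.54 (Amy2a5) and 0.13 (Cela1), with a median of -0.03. The medians over all probes were -0.0021 in HFD-ED against control, -0.0005 in HFD-CO against control and -0.0018 in HFD-ED against HFD-CO. The spread within the HFD-CO diet, with an SD of 3.63 for Cela2a against 1.04 for HFD-ED and 0.90 for control, exceeded the difference between the diet means.

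The size of the diet differences moved with the 2 high HFD-CO mice. The mean difference over the 9 genes was 1.68 in HFD-CO against control and -1.74 in HFD-ED against HFD-CO. Without HFD-CO replicate 4 it was 0.436 and -0.495. With diet medians in place of means, both signs were kept, at 1.04 and -1.16. Without HFD-CO replicates 1 and 4 it was -0.398 and 0.339, a sign fixed by leaving out the highest mice of 1 diet while HFD-ED replicate 1 and control replicate 2 stayed in. For Pla2g1b, HFD-CO against control was 0.12 (SE 0.073) without HFD-CO replicate 4. In HFD-ED against control the mean difference was -0.059.

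**Figure D4:**
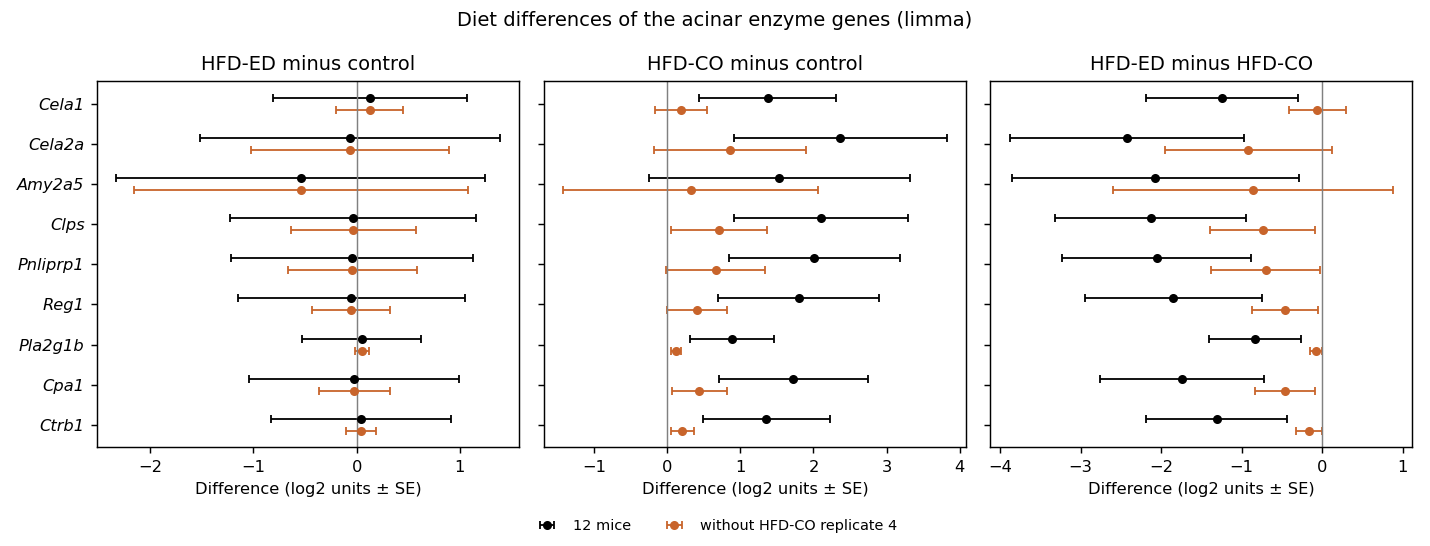
Differences between diet means (log2 units ± SE, x axis) of the 9 acinar enzyme genes in 3 comparisons, from all 12 mice (black) and without HFD-CO replicate 4 (orange). In both comparisons with HFD-CO the points move towards 0 without that mouse, and in HFD-ED minus control they keep their place while most SEs narrow.

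The list of 33 other acinar secretory genes gave similar values, with 0 of 33 called in each comparison (limma) and medians of -0.0044 in HFD-ED against control, 0.85 in HFD-CO against control and -0.85 in HFD-ED against HFD-CO. At an unadjusted p of 0.05 the counts were 0, 0 and 1 of 33 in the same order, while 4620, 2072 and 4211 of all 45281 probes passed.

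Gene lists of other pancreatic cells stayed near the floor. The 18 measured genes of islet hormones and granules did not exceed 7.22 in any mouse, with insulin (Ins2) at 7.16 in HFD-CO replicate 4 and at 7.03 to 7.12 in the others, glucagon (Gcg) at most at 7.13 and somatostatin (Sst) at most at 7.07. Of the 10 duct genes none exceeded 7.57, the level of Sox9 in HFD-CO replicate 2, and Krt19 and Cftr stayed at most at 7.12 and 7.11. Slc4a4, a bicarbonate transporter, was highest in HFD-CO replicate 4, at 7.51, with the next mouse at 7.36. The summed picture over each list, as the mean above the 12-mouse median, was at most 0.01 for islet genes and 0.05 for duct genes in any mouse.

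Among the acinar transcription factors, Rbpjl lay at 7.63 in HFD-CO replicate 4 and at 7.04 to 7.15 in the other 11 mice. Ptf1a stayed at 7.02 to 7.13 and Nr5a2 at 7.04 to 7.14. Bhlha15, which plasma cells also use, lay at 7.27 to 8.0, with HFD-CO replicate 4 at 7.62 inside that range. The whole list of 13 measured factors and receptors averaged 0.07 above its median in HFD-CO replicate 4, and none of its genes was more than 1 above.

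Markers of other tissues differed less between the mice, apart from 1 gene. The stomach genes Gkn1 and Gkn2 stayed at most at 7.20 and 7.11, while Tff2, a trefoil peptide of mucous cells, lay at 11.07 in HFD-CO replicate 4, at 7.78 in HFD-CO replicate 1 and at most at 7.22 elsewhere. Over the mice Tff2 followed the mean of the acinar enzyme genes, with r = 0.954, and 0.935 without HFD-CO replicate 4. Of the 18 measured adipocyte genes, 5 were highest in HFD-CO replicate 4 and none was more than 1 above its median there. Adipoq, the adipocyte hormone adiponectin, lay at 8.61 in that mouse and at 7.20 to 8.38 in the others. Lpl lay at 10.96 and at 9.70 to 10.62 in the others. Over the lists, adipocyte genes averaged -0.11 to 0.06 in the HFD-ED mice, 0.06 to 0.13 in the HFD-CO mice and -0.11 to 0.06 in the control mice. The 20 measured spleen cell genes averaged -0.15 to 0.11 in the HFD-ED mice, -0.06 to 0.06 in the HFD-CO mice and 0.00 to 0.09 in the control mice. These averages hide single genes that varied widely. Klf1 ran from 7.92 to 11.47 over the mice, with HFD-ED replicates 2, 3 and 4 the highest. Hmox1 ran from 8.47 to 10.45 and was 1.10 above its median in HFD-CO replicate 4. Whether pancreatic tissue attached to the spleen was the source of the enzyme transcripts was not tested.

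**Figure D5:**
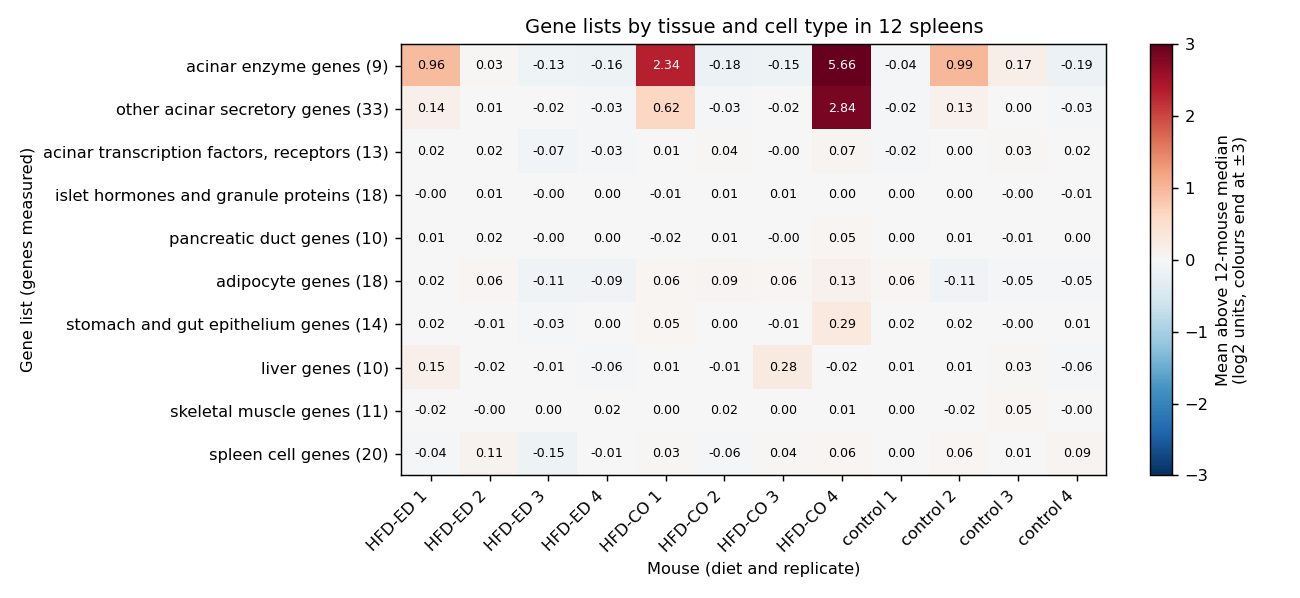
Mean level above the 12-mouse median (log2 units, colour and printed value) of each gene list (rows, number of measured genes in brackets) in each mouse (columns). The first 2 rows, acinar enzyme and other acinar secretory genes, reach 5.66 and 2.84 in HFD-CO replicate 4, while islet, duct and muscle rows stay between -0.02 and 0.05 in every mouse.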

How the data were processed

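RNA from the spleens of 12 mice had been hybridized to Illumina mouse whole-genome bead arrays, with an array for each mouse. The authors extracted intensities with GenomeStudio and applied a variance-stabilizing transformation and quantile normalization with lumi (2.18.0 in the submitters' processing notes). The deposited log2 values were used without further normalization or filter. The transformation compresses dim probes, and the number of arrays limits the precision.

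Gene symbols came from the platform annotation. Of 45281 probes, 34885 had 1 symbol, 18 several and 10378 none. Diets were fitted together with limma 3.58.1 in R 4.3.3 (lmFit, eBayes, two-sided) and adjusted by Benjamini-Hochberg over all probes, with calls at 0.05. The genes and lists were chosen with earlier results of these data known. All 10 acinar genes were named, with up to 6 genes per list with the largest level above the median in HFD-CO replicate 4, the 10 genes most like them and 4 acinar transcription factors. Other genes were named after their values were seen. Alternatives were a replicate block, other variance models, array weights, filters, 1 probe per gene, other scalings, only the diets compared and leaving out mice. Promoter windows were from RefSeq (GRCm38.p6). Detection p-values were not used here.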

Additional observations from a re-analysis of the deposited data

Results flagged for a closer look

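Within each diet and gene, a mouse was marked when its gap to the nearest mouse, as a part of the range of the 4 mice, exceeded the critical value of Dixon's test. Of 27 combinations of gene and diet 9 were marked. Chance marks about 1 in 20 where values did not choose the genes, and these genes were chosen for standing apart in some spleens and are high in the same mice, so the count is a description and is not set against chance. HFD-ED replicate 1 was marked for Cela2a at 9.20, Clps at 8.09, Pnliprp1 at 8.09, Cpa1 at 7.57 and Ctrb1 at 7.34. HFD-CO replicate 4 was marked for Pla2g1b at 10.22 and Ctrb1 at 11.96. Control replicate 2 was marked for Clps at 8.05 and Ctrb1 at 7.29. The Ctrb1 levels of HFD-ED replicate 1 and control replicate 2 were not above 7.5, with the next mice at 7.17 and 7.13. These marks therefore rest on small ranges at the floor. In the other 7 HFD-CO combinations no mouse was marked, and HFD-CO replicate 1 lay between HFD-CO replicate 4 and the low mice.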

How the results depend on the processing

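No acinar gene was called under any of the 21 alternatives in each comparison, over the 8 genes left with dim probes left out and 9 otherwise. Over all probes, 0 were called in HFD-ED against control, and trend and robust variances gave 8, 1 probe per gene symbol 3, and leaving out each mouse 0 to 87, the highest without HFD-ED replicate 1. In HFD-ED against HFD-CO 1 probe was called, and trend and robust variances gave 7, leaving out each mouse 0 to 46, the highest without HFD-ED replicate 1, and a replicate block, dim probes left out, only the 2 diets compared, and leaving out HFD-CO replicates 1 and 4 each gave 0. In HFD-CO against control all gave 0. Same-numbered mice did not consistently deviate together, with r between -0.257 and 0.371 and 4 of 12 pairs above 0.1. In 3 mice the most alike mouse of another diet had the same number. These correlations gave no clear pairing by number and cannot exclude one. The replicate block left the acinar mean differences at -0.059, 1.68 and -1.74, by construction, since every diet held the same replicate numbers.

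The mean difference of the acinar genes ranged over mice left out in turn from 0.436 to 2.38 in HFD-CO against control, from -2.44 to -0.495 in HFD-ED against HFD-CO and from -0.320 to 0.193 in HFD-ED against control. Leaving out HFD-CO replicates 1 and 4 together, chosen after seeing the data, gave -0.398 in HFD-CO against control and 0.339 in HFD-ED against HFD-CO, while diet medians gave 1.04 and -1.16. The median share of the HFD-CO replicate 4 excess in HFD-CO replicate 1, 4.74% on the linear scale, was 30.0% on the log2 scale, by construction. Of the 10 genes most like the acinar genes by Pearson r, 2 were among the first 10 by Spearman's rho, for which the cause was not tested. Of all values under alternatives, 167 stayed within their limit and 23 moved. For the mean differences this limit was wide, the pooled SD within diets of 1.65. The values of 0.436 and -0.495 without HFD-CO replicate 4 therefore counted as within it. Some values could not change, such as the mean difference in HFD-ED against control when an HFD-CO mouse was left out. These counts are therefore no measure of stability.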

Other observations

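Liver transcripts gave another pattern over the mice, which shared HFD-ED replicate 1 with the acinar pattern. Ttr, transthyretin, lay at 7.72 in HFD-ED replicate 1 and 8.0 in HFD-CO replicate 3 and at most at 7.16 in the other 10 mice, and Apoa2, an apolipoprotein, at 7.68 and 7.97 and at most at 7.22 elsewhere. Of the 10 measured liver genes only 3 exceeded 7.5 in any mouse, and the third of them, Trf, lay at 9.80 to 10.59 with its highest level in control replicate 3. The other 7, Alb among them at most at 7.09, did not exceed 7.39. Near the floor, Ahsg, Apoa1 and Apoc3 were also highest in HFD-CO replicate 3, at 7.39, 7.31 and 7.28. HFD-ED replicate 1 came next, at 7.26, 7.27 and 7.21. Alb, Serpina1a, Fgb and Fgg did not have this order. HFD-CO replicate 4, with the most acinar transcript, had Ttr at 7.12 and Apoa2 at 7.18. Ttr, Apoa2, Ahsg, Apoa1 and Apoc3 were named after their values were seen.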
